A study of Mus musculus with 52 samples.

Results

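T cell receptor genes encode the chains by which T cells recognise antigen. Transcripts of 122 of them, of 184 listed in the mouse annotation and 47729 genes in the table, were followed in 52 mammary tumours of young and aged mice. The genes were chosen by their symbols and by their total counts: the symbol begins with Trav, Trac, Trbv, Trbc, Trdv, Trdc, Trgv or Trgc, and the counts of all 52 libraries sum to 20 or more. Levels as such are therefore a description. The other 62 fell under that minimum, and 25 of those had no count at all. Just inside the minimum were Trav7d-5 and Trav7n-5 with 20 counts each, and just outside were Trav3d-3 and Trav3n-3 with 17 each. The members were 8 constant genes (Trac, Trbc1, Trbc2, Trdc and Trgc1 to Trgc4) and 114 variable genes, of which 81 were Trav, 21 Trbv, 5 Trdv and 7 Trgv. The annotation names 10 of the gamma genes Tcrg, such as Tcrg-C2 for Trgc2.

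A T cell carries a receptor of an alpha and a beta chain or, less often, of a gamma and a delta chain. Each chain is made by joining 1 variable segment, with short joining segments and in some chains a diversity segment, to a constant region. A constant gene is therefore shared by T cells with different variable segments, while a variable gene marks the cells that chose it. The receptor reaches the cell surface only with the CD3 proteins. Tumours hold T cells in numbers that vary widely, and the checkpoint proteins CTLA4 and PD-L1 restrain them.

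The tumours were grown from 4T1, a mammary carcinoma line derived from BALB/c mice, of which 100000 cells were placed in the left mammary fat pad number 4 of Balb/C mice. All animals thus carried the same line and an intact immune system. Young mice were 8 to 10 weeks old (up to 12 in the protocol) and aged mice more than 12 months. Antibody was given into the peritoneum 3 times, at 200 µg per dose (days 7, 10 and 13): the isotype control LTF-2, the anti-PD-L1 clone 10F.9G2 or the anti-CTLA4 clone 9D9. Libraries numbered 7 young isotype, 10 young anti-PD-L1, 12 young anti-CTLA4, 7 aged isotype, 8 aged anti-PD-L1 and 8 aged anti-CTLA4. The labels call them biological replicates without naming animals, and a p-value therefore weighs a difference against library-to-library spread, which may be partly technical. Whole tumours were sequenced, so fewer T cells and less receptor RNA per cell cannot be told apart.

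Library totals ran from 9549847 to 53778370 counts. Member genes took between 338 and 26747 counts of a library, with a median of 1556, or 13.1 to 840 CPM (counts divided by the library total) before scaling. Sequencing was done in 3 labelled batches that were uneven over the groups: batch 2 had no aged tumour but every young isotype tumour (7), and batch 1 had every aged anti-PD-L1 tumour (8). Isotype and anti-PD-L1 groups of different age therefore shared no batch. Anti-CTLA4 groups shared batch 1, with 4 young and 7 aged libraries, and batch 3, with 5 young and 1 aged. Normalization factors (TMM, trimmed mean of M values) were under 0.8 in 4 libraries: young isotype replicates 1 and 6, young anti-CTLA4 replicate 8 and aged isotype replicate 3. From here on CPM is also scaled by these factors. Summed CPM of 22 T cell markers ran from 187 to 2215 over the libraries, so T cell transcripts were present in each.

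The beta chain constant genes led the family. Between genes, levels are compared in TPM, which scales by transcript length and library size. Over 52 libraries Trbc2 had a mean of 84.5 ± 104.1 TPM (SD), Trbc1 of 47.2 ± 57.1 and Trac, the only alpha constant gene, of 38.6 ± 43.5. The ranges were wide: Trbc2 ran from 6.03 to 542 TPM and Trac from 2.99 to 279. The SD was above the mean for all 3 genes, so the order of Trbc1 and Trac is within the spread between tumours. Gamma and delta constant genes were far lower. Trgc2 had 4.44 ± 3.72 TPM, Trgc1 3.07 ± 1.34, Trgc4 1.87 ± 1.10 and Trdc, the only delta constant gene, 1.13 ± 0.74. Neighbours in that order lay within the spread of each other. Trgc3 had 0.17 TPM and no count in 19 libraries.

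Trbc1 and Trbc2 are near copies on chromosome 6, at chr6:41538218-41539881 and chr6:41546730-41548352 on the forward strand (build mm10). Their coding sequences in GENCODE vM21 are identical at 495 of 518 bases, and the first differing base is number 260. Bases 339 to 518 are shown because they hold 22 of the 23 coding differences, given in capitals. The aligned transcripts differ at 87 bases, so most differences lie outside the coding part.
Trbc1: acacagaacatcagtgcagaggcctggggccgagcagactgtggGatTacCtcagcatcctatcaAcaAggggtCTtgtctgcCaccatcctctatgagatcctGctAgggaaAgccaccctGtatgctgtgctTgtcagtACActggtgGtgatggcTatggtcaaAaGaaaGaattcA
Trbc2: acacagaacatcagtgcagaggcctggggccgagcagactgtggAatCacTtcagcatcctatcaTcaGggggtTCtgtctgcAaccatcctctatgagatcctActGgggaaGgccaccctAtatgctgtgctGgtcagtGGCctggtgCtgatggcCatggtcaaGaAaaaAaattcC
Of the 31-base words of the Trbc1 transcript, 45.4% are also in Trbc2, so part of the reads could be assigned to either gene. Trbc1 took 36.6 ± 4.07% of the summed TPM of both (SD, n = 52), with a range of 23.1 to 43.4%. The gamma genes Trgc1 and Trgc2 share 96.2% of aligned transcript bases and Trgc1 and Trgc3 share 97.2%, which leaves their split uncertain too. Trgc4 is 70.7% identical to Trgc1.

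Variable genes as a whole reached a mean summed level of 108 TPM against 181 TPM for constant genes, both over 52 libraries. Trbv genes made up 73.5 TPM of that, Trav 25.6, Trgv 5.19 and Trdv 3.47. The 4 leading variable genes were Trbv13-2 (9.17 TPM), Trbv13-1 (8.63), Trbv13-3 (6.42) and Trbv4 (6.33). By total counts Trbv19 came first, with 2553 against 2351 for Trbv13-2. The best of the 81 Trav genes, Trav3-3, had 2.23 TPM. Many members were barely covered: 63 had fewer than 100 counts over all libraries. In all, 22 members, some of them among those 63, had transcripts and counts identical to those of another member, so they do not give independent values. Trav14d-2 and Trav14n-2 are such a pair, with identical coding sequences of 364 bases. A library had a count in 25 to 112 of the 114 variable genes, with a median of 60.

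The leading beta segments Trbv13-2 (chr6:41121396-41121832) and Trbv13-3 (chr6:41130147-41130585) are relatives that agree at 308 of 340 coding bases. The first 180 bases are shown because both are among the highest Trbv genes by mean TPM. They can be told apart by the 16 differing bases in capitals.
Trbv13-2: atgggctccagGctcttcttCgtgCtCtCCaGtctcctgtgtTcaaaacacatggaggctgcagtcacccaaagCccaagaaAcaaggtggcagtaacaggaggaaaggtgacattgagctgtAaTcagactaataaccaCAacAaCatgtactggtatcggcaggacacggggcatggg
Trbv13-3: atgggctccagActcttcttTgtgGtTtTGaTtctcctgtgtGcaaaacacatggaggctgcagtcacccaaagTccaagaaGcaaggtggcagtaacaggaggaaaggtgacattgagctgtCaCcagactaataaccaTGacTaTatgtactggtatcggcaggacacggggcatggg
They share 10.0% of 31-base words, and their counts are less entangled than those of the beta constant genes.

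Constant genes of the alpha-beta lineage varied more within groups than between most of them. Within a gene, CPM is used. The lowest, median and highest Trac values were 5.87, 8.70 and 42.1 CPM in young isotype tumours, 8.20, 11.1 and 82.5 in young anti-PD-L1 and 12.7, 32.8 and 149 in young anti-CTLA4. In aged tumours they were 4.93, 10.2 and 33.4 CPM with isotype, 1.70, 13.1 and 48.6 with anti-PD-L1 and 5.59, 14.2 and 36.6 with anti-CTLA4. Young anti-CTLA4 tumours had the highest median, and their range overlapped that of every other group. Batch 2 was the only batch with all young groups. There the Trac medians were 8.70, 11.1 and 19.6 CPM and the means 17.2, 18.7 and 18.1 CPM. These are for isotype (n = 7), anti-PD-L1 (n = 9) and anti-CTLA4 (n = 3). Young anti-CTLA4 medians were 40.6 CPM in batch 1 and 41.9 CPM in batch 3. For Trbc2 the medians were 24.4, 17.8 and 61.6 CPM in young and 19.6, 16.1 and 22.1 CPM in aged tumours, in the same order of antibodies. Within batch 2 the young medians of Trbc2 were 24.4, 16.6 and 39.3 CPM and the means 45.3, 36.8 and 35.9 CPM.

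**Figure D1:**
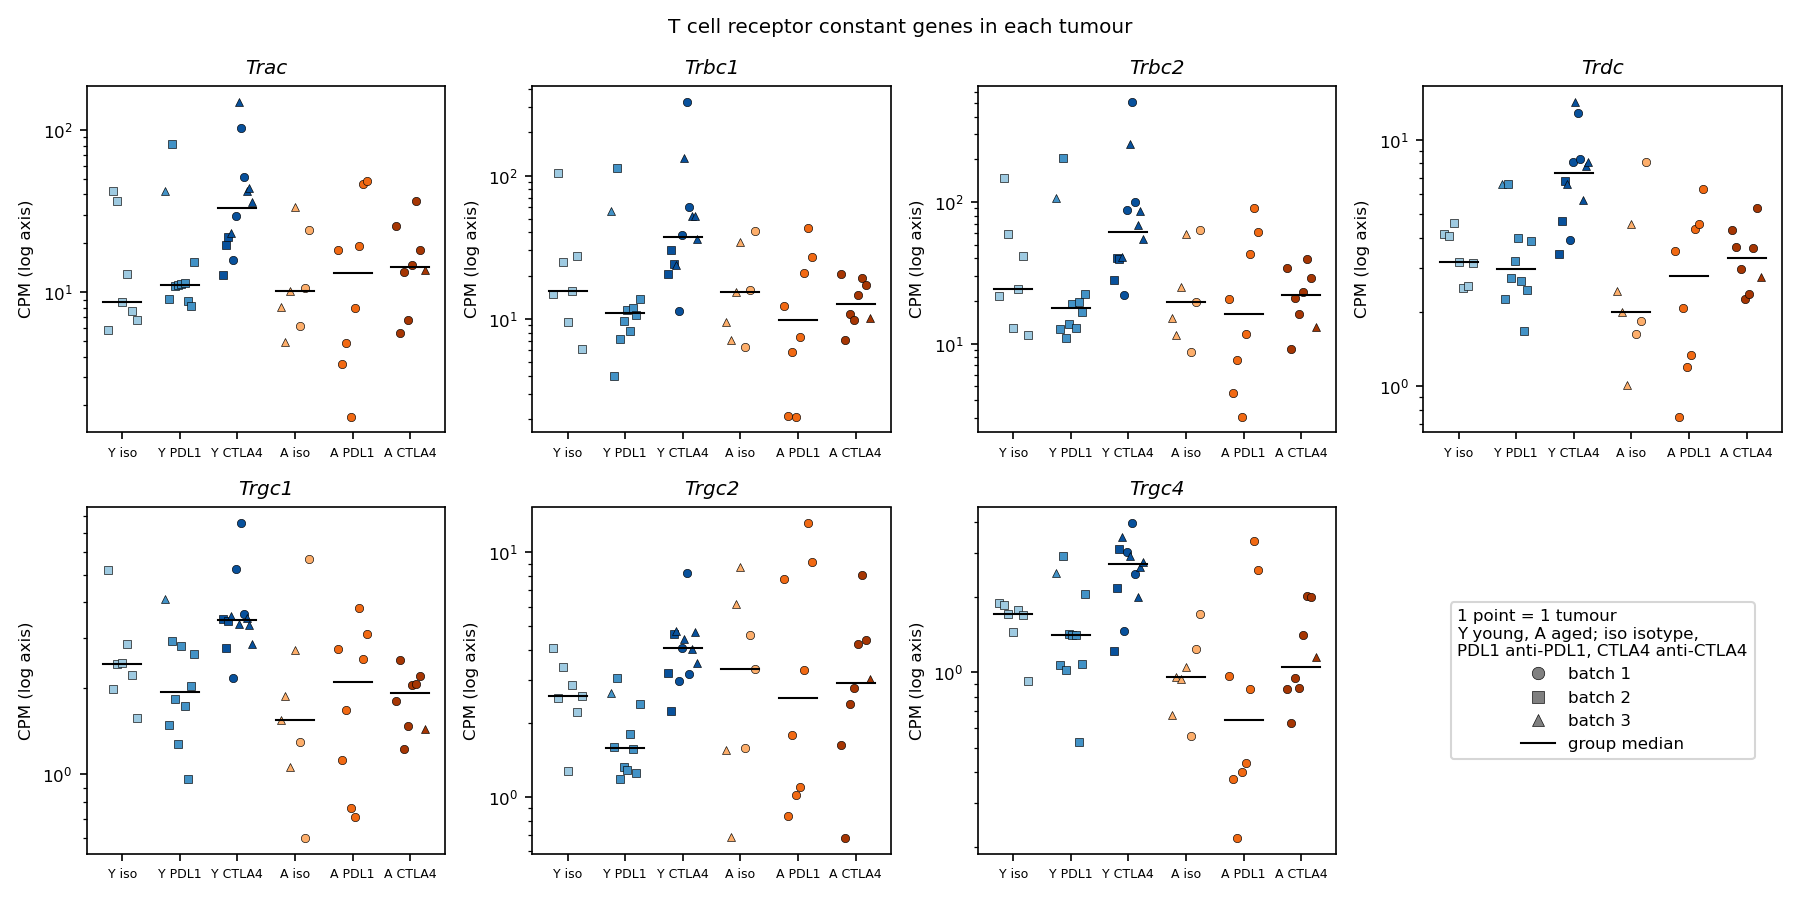
CPM (log axis) of 7 T cell receptor constant genes in 52 tumours by group, with 1 point per tumour, the symbol giving the sequencing batch and the line the group median. Young anti-CTLA4 tumours have the highest median for each gene shown, for example 32.8 CPM for Trac, and their points overlap those of other groups. In batch 2, the only batch with all young groups, their Trac median is 19.6 CPM (n = 3).

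The plot of constant genes shows the batches together with the groups. Young anti-CTLA4 replicates 7 and 8 stood at the top for Trac, with 149 and 103 CPM, and for Trbc2, with 257 and 509 CPM. Replicate 7 had 3421 summed CPM of 11 B cell markers and replicate 8 had 1743, against a group median of 379. B cell markers are abundant in lymph nodes, and their part in the level of receptor genes was not tested. Replicate 8 also had little Trac for its Trbc, at 11.1% in TPM, while the mean over 52 libraries was 32.8 ± 10.8% (SD).

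Between aged and young tumours under anti-CTLA4, receptor genes were lower in aged mice. Of 122 members 29 had enough counts to be tested, and 19 of the 29 were called lower and 0 higher in aged tumours (edgeR quasi-likelihood test, Benjamini-Hochberg adjusted p under 0.05 over 17899 genes). Over all genes tested, 30.6% were called in either direction and 15.9% were called lower. The median log2 fold change of the 29 was -1.91, against -0.06 over all genes. Of the 29, 9 reached the level of the filter in 50% or more of the libraries in at most 1 group, and 6 of these were among the 19, so the count describes the tested members and not the family. Of the 10 that reached it in every group, 7 were called lower.

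Both beta chain constant genes were called lower. Trbc1 ran from 11.3 to 328 CPM in the 12 young anti-CTLA4 tumours with a median of 37.2, and from 7.05 to 20.4 CPM in the 8 aged ones with a median of 12.7. All but 1 young tumour (11 of 12) lay above the highest aged tumour. The fitted log2 fold change was -2.79 ± 0.67 (SE) with an adjusted p of 0.0014 (edgeR). Trbc2 ran from 21.9 to 509 CPM, median 61.6, in young tumours and from 9.19 to 39.2 CPM, median 22.1, in aged ones. Here 10 of 12 young tumours were above every aged one, and the log2 fold change was -2.78 ± 0.70 (edgeR, adjusted p = 0.0022). For Trac 5 of 12 young tumours lay above the highest aged tumour, and the log2 fold change was -1.65 ± 0.61 (edgeR, adjusted p = 0.034).

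Of 16 beta variable genes tested, 11 were called lower in aged tumours, beside 15.9% of all genes. Trbv3, Trbv12-2, Trbv17 and Trbv20 reached the filter level in 50% or more of the libraries only among young anti-CTLA4 tumours, and Trbv16 did so in no group, so this count is a description. Trbv16, whose chain is known as V beta 11, ran from 0.14 to 2.92 CPM in young tumours and from 0 to 0.17 CPM in aged ones, with 11 of 12 young tumours above all aged ones. Its log2 fold change was -3.64 ± 1.03 (edgeR, adjusted p = 0.0061). Trbv14 ran from 0.28 to 7.84 CPM, median 1.55, in young and from 0.05 to 0.81 CPM, median 0.41, in aged tumours, and 8 of 12 young tumours were above all aged ones. Its log2 fold change was -3.31 ± 0.82 (edgeR, adjusted p = 0.0019). Trbv13-2, the highest by mean TPM, ran from 1.32 to 13.1 CPM in young and from 0.37 to 1.64 CPM in aged tumours. Its log2 fold change was -2.14 ± 0.73 (edgeR, adjusted p = 0.021). The other beta variable genes called were Trbv3 at -3.06, Trbv1 at -2.81, Trbv29 at -2.77, Trbv17 at -2.35, Trbv31 at -2.24, Trbv5 at -2.24, Trbv13-3 at -2.08 and Trbv12-2 at -1.91 on the log2 scale. Those not called were Trbv4, Trbv2, Trbv13-1, Trbv19 and Trbv20, with fitted values from -1.92 to -1.43. Among 4 Trav genes tested, Trav7d-4 (-2.64) and Trav3-3 (-1.90) were called, while Trav8d-1 (-1.34) and Trav7-4 (-0.83) were not. Trav7d-4 and Trav3-3 reached the filter level in 50% or more of the libraries only among young anti-CTLA4 tumours. Trav8d-1 and Trav7-4 did so in no group, so these results too are a description. Trav7d-4 and Trav7-4 agree at 99.6% of aligned bases, so their reads can hardly be told apart.

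Gamma and delta genes split. Trdc ran from 3.43 to 14.3 CPM, median 7.31, in young and from 2.26 to 5.28 CPM, median 3.31, in aged anti-CTLA4 tumours, with 9 of 12 young tumours above all aged ones and a log2 fold change of -1.44 ± 0.37 (edgeR, adjusted p = 0.0023). Trgc1 ran from 2.17 to 7.56 CPM in young and from 1.22 to 2.51 CPM in aged tumours, with 11 of 12 young tumours higher than all aged ones, and a log2 fold change of -1.31 ± 0.34 (edgeR, adjusted p = 0.0030). Trgc4 was lower by the same measure at -1.22 ± 0.39 (edgeR, adjusted p = 0.013). Trgc2 was not called: it ran from 2.25 to 8.25 CPM in young and from 0.68 to 8.08 CPM in aged tumours, a log2 fold change of -0.35 ± 0.47 (edgeR, adjusted p = 0.60). Neither the gamma segment Trgv2 (0.07 ± 0.48) nor the delta segment Trdv4 (0.01 ± 0.32) was called, with edgeR adjusted p = 0.93 and 0.98. The differences between these genes and the called ones were not tested.

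**Figure D2:**
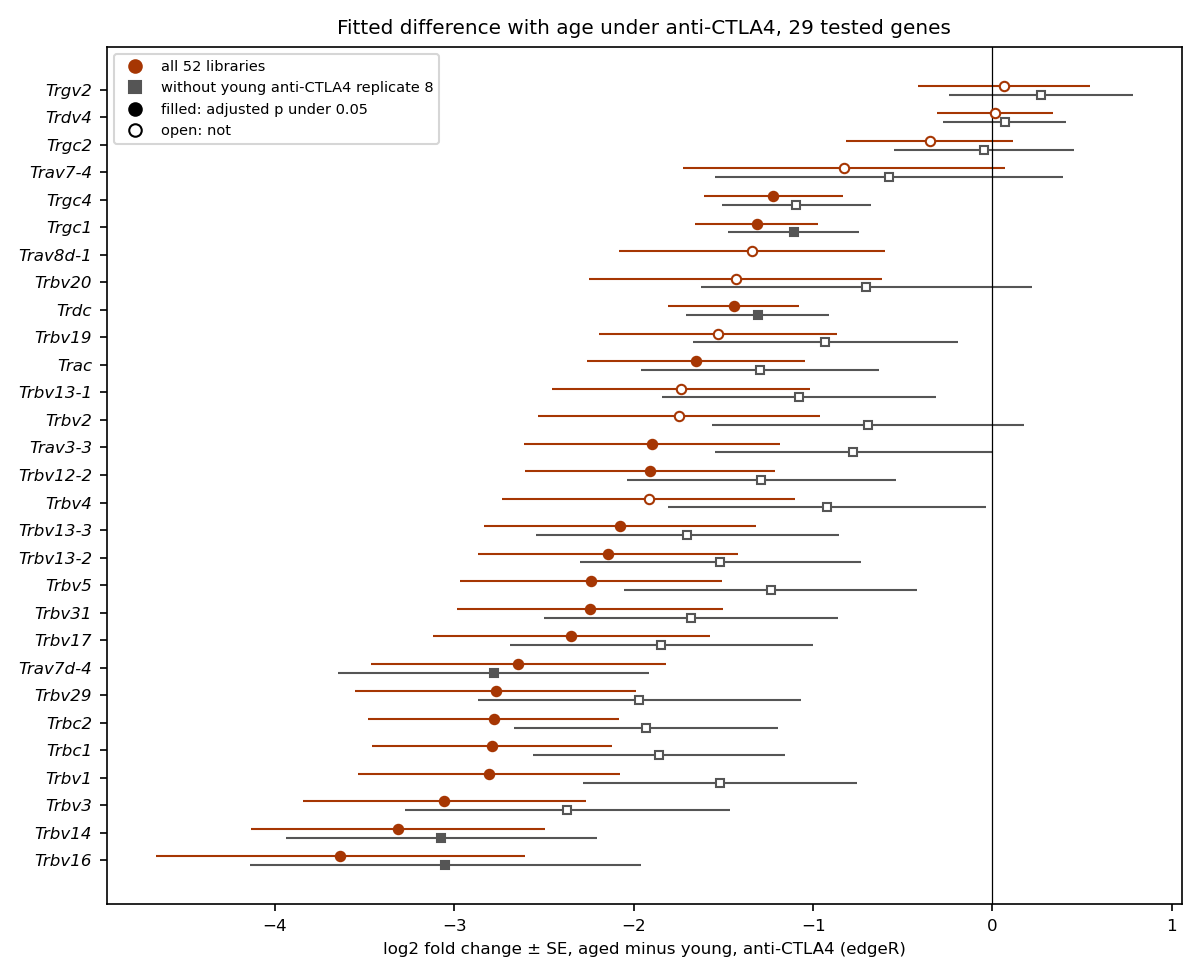
Fitted log2 fold change with SE, aged minus young under anti-CTLA4, for the 29 tested receptor genes, with all 52 libraries (circles) and without young anti-CTLA4 replicate 8 (squares); filled symbols have an adjusted p under 0.05. With all libraries 19 genes are filled, from Trbv16 at -3.64 to Trgc4 at -1.22, and without that replicate 5 are.

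One library carried many of these calls. Without young anti-CTLA4 replicate 8, the tumour with the most receptor counts for its depth (840 CPM before scaling), 5 of 28 tested members were called lower, with 21.7% of all genes called. They were Trbv14 (-3.07), Trbv16 (-3.05), Trav7d-4 (-2.78), Trdc (-1.31) and Trgc1 (-1.11). With all libraries, Trav7d-4 reached the filter level in 6 of 12 young and 0 of 8 aged anti-CTLA4 tumours. Trbv16 did so in 5 of 12 and 0 of 8, so the calls of Trav7d-4 and Trbv16 are a description here too. In the fit without replicate 8, edgeR gave Trbc1 a log2 fold change of -1.86 (adjusted p = 0.051). By edgeR Trbc2 was at -1.93 (adjusted p = 0.053) and Trac at -1.30 (adjusted p = 0.16) in the same fit. Within batch 1, with 7 aged and 4 young libraries, 8 of 32 tested members were called lower and 29.3% of all genes were called, with Trbc1 at -2.95 (edgeR, adjusted p = 0.0071) and Trac at -1.52 (edgeR, adjusted p = 0.12).

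Other T cell transcripts were lower too. Of 22 T cell markers, 16 were called lower in aged anti-CTLA4 tumours and 0 higher. In this fit 15.9% of all genes were called lower, and 2644 of 17899 were called higher. The 16 included Cd3d (-3.05), Sh2d1a (-2.75) and Cd3g (-2.18). The summed level of the 22 markers ran from 350 to 2215 CPM, median 691, in young tumours. In aged ones it ran from 227 to 586 CPM, median 368. Of 7 natural killer cell markers 5 were called lower. Among these were the protease gene Gzma (-2.80) and the receptor genes Klre1 (-2.06), Klrk1 (-1.18) and Ncr1 (-1.13). The summed level of the 7 ran from 40.8 to 225 CPM in young and from 21.3 to 55.8 CPM in aged tumours. All 4 neutrophil markers were called lower, and 4 of 5 carcinoma markers were called higher (Epcam by 1.07). Of 11 B cell and 4 plasma cell markers 0 were called. Of 7 naive T cell markers Klf2 was called lower (-0.64), of 4 gamma-delta T cell markers tested Cd163l1 (-1.33, list median 0.07) and of 5 macrophage markers Cd68 (-1.26). None of 5 lymph node stroma markers (median -1.75) or 3 thymic markers tested (0.10) was called. The part of these lists in the level of receptor genes was not tested. When the mean log2 CPM of Cd3d, Cd3e, Cd3g and Cd247, of which Cd3d, Cd3e and Cd3g were themselves called lower, was added to the model, 0 of the 19 genes remained called lower. The fitted values became 0.35 for Trac (edgeR, adjusted p = 0.16) and -0.03 for Trbc1, and 4 members were called higher in aged tumours (Trbv2, Trbv4, Trbv13-1 and Trbv20), with 17.2% of all genes called. With the B cell marker level in the model, 22 members were called lower, including all of the 19, and 33.7% of all genes were called. DESeq2 without a covariate also called 22 lower, including all of the 19, with 33.7% of all genes called.

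In no other comparison fitted was a receptor gene called by edgeR with all libraries and the batch term. In young mice anti-PD-L1 against isotype called 0 of 29 members, with 1.59% of all genes called and 1 member, and 24.2% of all genes, at an unadjusted p under 0.05. DESeq2 called 0 members and 4.82% of all genes. The smallest p belonged to Trdv4, with 0.24, 0.29 and 0.48 CPM as lowest, median and highest under anti-PD-L1 and 0.27, 0.57 and 0.65 CPM under isotype. The ranges overlapped, and its log2 fold change was -0.78 ± 0.34 (edgeR, adjusted p = 0.15). Next came Trgc2 at -0.64 (edgeR, adjusted p = 0.38), and Trac was at 0.08 (edgeR, adjusted p = 0.94).

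Anti-CTLA4 against isotype in the young likewise called 0 of 29, with 0.0726% of all genes called and 0 members, and 6.97% of all genes, at an unadjusted p under 0.05. DESeq2 called 0 members and 0.285% of all genes. Trac had a log2 fold change of 0.17 ± 0.74 (edgeR, adjusted p = 0.99), although its medians were 32.8 and 8.70 CPM. The groups shared only batch 2, with 3 anti-CTLA4 and 7 isotype libraries, and the fit without a batch term gave the 29 members a median of 1.20 in place of -0.19. Without that term 2 members were called higher, with 6.93% of all genes called: Trav7d-4 (2.83, edgeR, adjusted p = 0.039) and Trdc (1.13, edgeR, adjusted p = 0.041). Trav7d-4 reached the filter level in 6 of 12 young anti-CTLA4 and 1 of 7 young isotype tumours, so its call is a description. The members of smallest p with the batch term were Trbv20 (-1.60 ± 1.24) and Trav7d-4 (1.47 ± 1.17), with edgeR adjusted p = 0.89 and 0.90.

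In aged mice both antibodies left receptor genes uncalled. Anti-PD-L1 against isotype called 0 of 29, with 0.0% of all genes called and 1 member, and 30.1% of all genes, at an unadjusted p under 0.05. DESeq2, which gave an adjusted p for 18 of the 29 members, called 0 of them and 11.4% of all genes. The member at an unadjusted p under 0.05 was Trbv16 at 2.58 ± 1.12 (edgeR, adjusted p = 0.12). Its values reached 4.25 and 2.90 CPM in anti-PD-L1 replicates 8 and 7 and 0.62 CPM in replicate 2, and were at most 0.09 CPM in the other 5, against 0 to 0.34 CPM under isotype. The difference thus rested on 3 of 8 tumours. Trbv4 came next at -1.42 (edgeR, adjusted p = 0.30), and Trac was at 0.46 (edgeR, adjusted p = 0.67). Anti-CTLA4 against isotype called 0 of 29, with 0.0% of all genes called and 0 members, and 29.7% of all genes, at an unadjusted p under 0.05. DESeq2, which gave an adjusted p for 19 of the 29 members, called 0 of them and 7.61% of all genes. Trac was at 0.29 (edgeR, adjusted p = 0.78). The members of smallest p there were Trbv3 (-1.23) and Trbv4 (-1.32), with edgeR adjusted p = 0.28 and 0.32.

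Age under isotype and under anti-PD-L1 gave no calls by edgeR with all libraries and the batch term. Under isotype 0 of 29 members were called, with 8.41% of all genes called, 9 members and 24.6% of all genes at an unadjusted p under 0.05, and a member median of -1.69. DESeq2 called 0 members and 12.3% of all genes. Trbv17 (-2.93 ± 1.18) and Trbc2 (-2.47 ± 1.01) had the smallest p, with edgeR adjusted p = 0.11 and 0.12, and Trac was at -1.78 ± 0.91 (edgeR, adjusted p = 0.22). Under anti-PD-L1 0 of 29 were called, with 5.04% of all genes called, 8 members and 21.1% of all genes at an unadjusted p under 0.05, and a member median of -1.75, while DESeq2 called 1 member, Trbv29 at -3.10 (adjusted p = 0.049), and 8.56% of all genes. By edgeR Trbv29 was at -3.02 ± 1.08 (adjusted p = 0.088), Trbc1 at -2.48 ± 0.94 (adjusted p = 0.11) and Trac at -1.41 ± 0.90 (adjusted p = 0.37). Medians of other lists were also negative under isotype and anti-PD-L1: -1.82 and -1.49 for 22 T cell markers, -3.24 and -3.32 for 11 B cell markers, and -3.49 and -3.37 for 5 lymph node stroma markers. Medians were positive for 5 carcinoma markers (0.83 and 0.59) and for 3 thymic markers tested (0.45 and 1.19). None of the B cell or stroma markers was called, 1 T cell marker was called lower under isotype, and 3 of 4 neutrophil markers under anti-PD-L1. In both comparisons 1 of 7 natural killer cell and 1 of 5 macrophage markers were called lower, and 1 of 5 carcinoma markers higher. Beside these, 8.41% and 5.04% of all genes were called. The part of these lists in the values of receptor genes was not tested. The groups compared shared no batch, so these values rest on batch differences estimated from other groups. Without a batch term the medians were -0.27 under isotype and -0.24 under anti-PD-L1, and age cannot be told apart from batch in these groups alone.

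The difference of differences, the antibody effect in aged minus that in young mice, called 0 of 29 members for either antibody, with 0.0% of all genes called and 0 members at an unadjusted p under 0.05, beside 3.66% of all genes for anti-PD-L1 and 7.02% for anti-CTLA4. DESeq2 called 0 members for either, and 0.168% of all genes for anti-PD-L1 and 0.0894% for anti-CTLA4. For Trac it was 0.37 for anti-PD-L1 and 0.13 ± 0.97 for anti-CTLA4 (edgeR, adjusted p = 0.97 for the latter). For anti-CTLA4 the members of smallest p were Trbv3 (-1.65 ± 1.17) and Trbv14 (-1.62 ± 1.26), with edgeR adjusted p = 0.65 and 0.66. For anti-PD-L1 they were Trbv16 (2.84 ± 1.45) and Trgc2 (1.01), both with an edgeR adjusted p of 1.00. The lower level in aged anti-CTLA4 tumours was therefore not shown to differ from the age difference under isotype. Isotype groups of different age shared no batch, so this rests on batch differences estimated from other groups. For anti-CTLA4 the member median was -0.39, and -1.355 without a batch term, where 0 members and 0.0559% of all genes were called. It was -1.09 with the B cell level, 0.01 with the CD3 level and 0.05 without libraries of low TMM factor. Several comparisons share groups, so their values are not independent of each other.

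The leading beta segment varied between tumours, and 10 Trbv genes led at least 1 library. Trbv13-2 made up 12.6 ± 4.70% of the summed Trbv TPM (SD, n = 52, range 1.63 to 29.7%), Trbv13-1 11.6 ± 4.51%, Trbv13-3 8.93 ± 5.02%, Trbv29 8.20 ± 5.81% and Trbv4 7.98 ± 5.17%. Neighbours in that order lay within the spread. Trbv13-2 led in 21 libraries, Trbv13-1 and Trbv13-3 in 7 each, and Trbv29 and Trbv4 in 4 each. The expected number of distinct Trbv genes in 50 counts was between 13.8 and 15.3 in the mean of every group, over 49 libraries, as 3 had fewer than 50 counts.

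**Figure D3:**
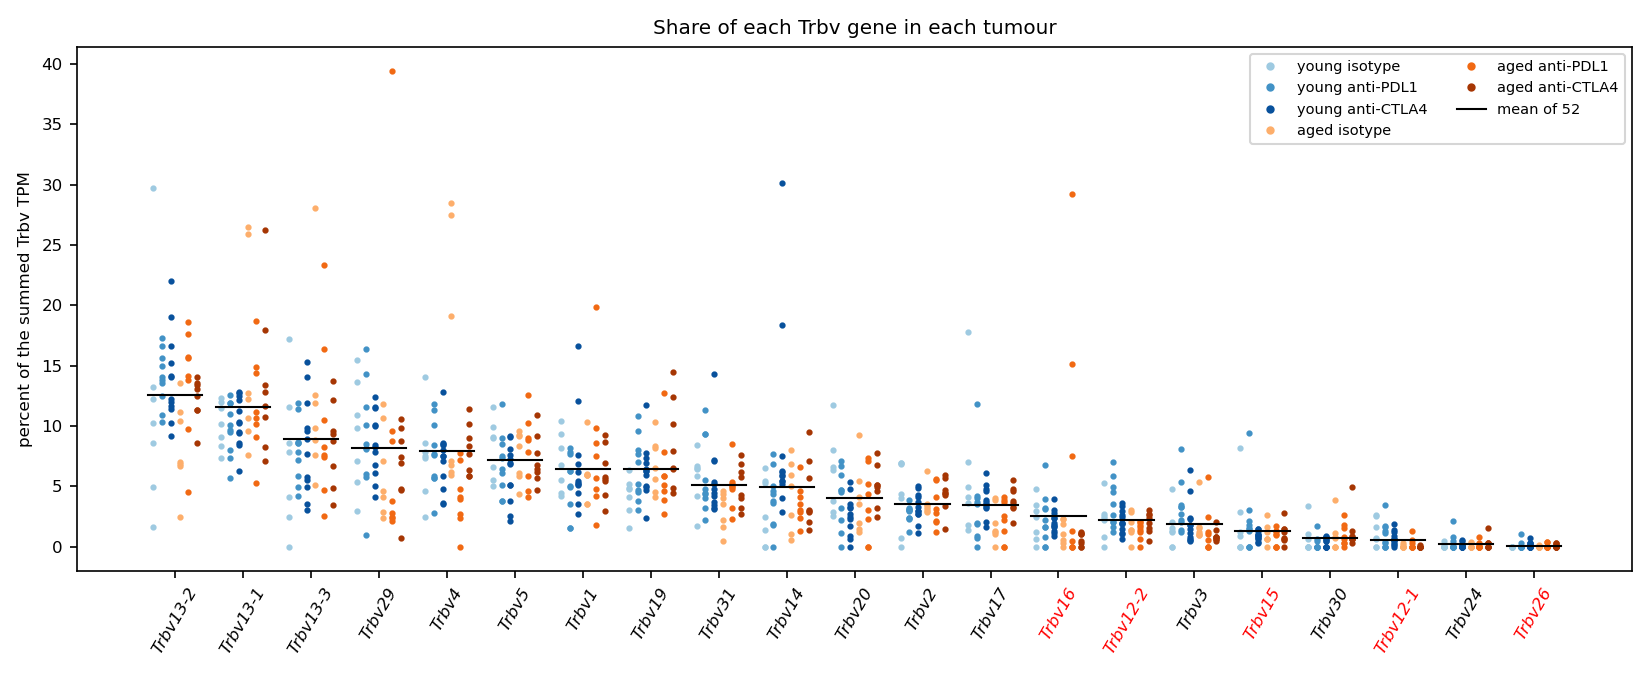
Share of each of 21 Trbv genes in the summed Trbv TPM (percent) of each of 52 tumours, with 1 point per tumour, coloured by group, and a line at the mean; red names are the 5 genes known to be removed by superantigens. Trbv13-2 has the highest mean, 12.6%, and single tumours reach 39.4% for Trbv29 and 30.1% for Trbv14.

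Single tumours with a dominant segment had few counts behind it. In aged anti-PD-L1 replicate 3 Trbv29 had 39.4% of Trbv TPM, from 29 of 81 counts (35.8%, 95% Wilson interval 26.2 to 46.7%). In aged anti-PD-L1 replicate 2 Trbv16 had 29.2%, from 15 of 49 counts (30.6%, 19.5 to 44.5%). Better covered were young anti-CTLA4 replicate 6, where Trbv14 had 96 of 333 counts (28.8%, 24.2 to 33.9%), and aged isotype replicate 4, where Trbv4 had 322 of 1159 counts (27.8%, 25.3 to 30.4%). These intervals cover counting error only. The table gives segments and not joined sequences, so a large share can be 1 clone or many.

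BALB/c mice carry mouse mammary tumour virus proviruses whose superantigens remove T cells with certain beta chains in the thymus, known for Trbv26, Trbv12-1, Trbv12-2, Trbv16 and Trbv15. These 5 genes made up 6.73 ± 5.17% of the summed Trbv TPM (SD, n = 52), with a range of 0 to 31.3%. The group means were 7.55% in young isotype, 9.11% in young anti-PD-L1, 5.99% in young anti-CTLA4, 4.12% in aged isotype, 9.25% in aged anti-PD-L1 and 3.91% in aged anti-CTLA4, with SDs of 1.63 to 10.9 percentage points. The aged anti-PD-L1 mean rests on few libraries, as the median there was 3.95% and the highest 31.3%. Trbv26 had 32 counts in all and was at 0 in 39 libraries, and Trbv12-1 had 107 counts and was at 0 in 23. Trbv12-1 was at most 0.02 CPM in aged anti-CTLA4 tumours and above that in 11 of 12 young ones, but it was too sparse to be tested. Trbv13-1, Trbv13-2, Trbv13-3 and Trbv19, which are not removed in this way, together made up 39.5 ± 8.59%.

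Aged tumours had more Trbv for their Trbc under each antibody. The summed Trbv TPM was 67.9 ± 8.07% of the summed Trbc TPM in aged isotype (SD, n = 7, range 53.8 to 78.9%) and 49.0 ± 13.4% in young isotype (n = 7, 25.7 to 66.5%). It was 66.3 ± 10.6% (n = 8, 45.3 to 81.1%) against 52.1 ± 8.23% (n = 10, 35.8 to 65.5%) under anti-PD-L1. Under anti-CTLA4 it was 66.7 ± 10.0% (n = 8, 54.1 to 87.9%) against 50.1 ± 7.65% (n = 12, 38.5 to 67.0%). The differences of 18.9, 14.2 and 16.6 percentage points were above the SD of either group, and the ranges overlapped in all 3 pairs. No test is given, since the ratio is a score over chosen genes and its comparison by age was added after the data were seen. It has no batch term, and isotype and anti-PD-L1 groups of different age shared no batch. Age and batch therefore cannot be told apart in those pairs. Within batch 1 the anti-CTLA4 groups did not overlap, with 54.1 to 70.1% in 7 aged and 38.5 to 51.8% in 4 young libraries. Natural killer cell markers had medians of 49.1, 39.3 and 35.9 summed CPM in the aged groups (isotype, anti-PD-L1, anti-CTLA4) and of 92.2, 57.1 and 102 in the young ones, and their part in the ratio was not tested.

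**Figure D4:**
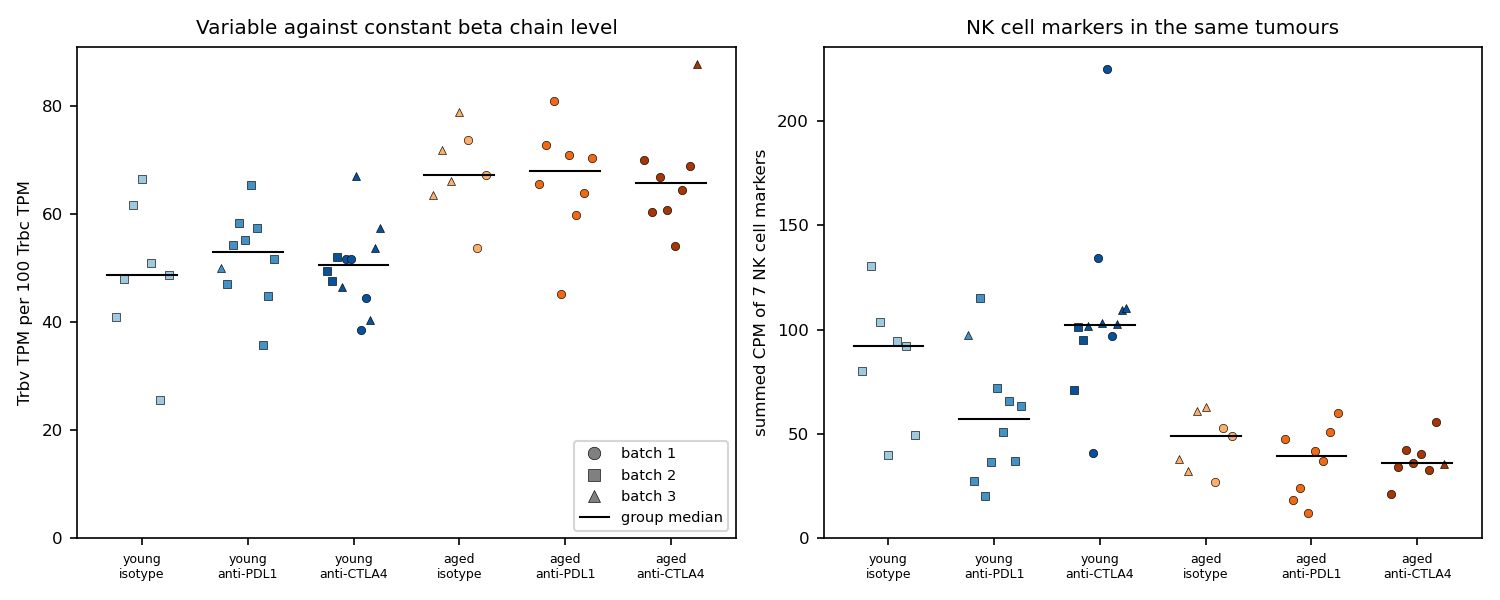
Left, summed Trbv TPM per 100 summed Trbc TPM in each of 52 tumours by group; right, summed CPM of 7 natural killer cell markers in the same tumours; symbols give the batch and lines the group median. The aged group means are between 66.3 and 67.9 on the left and the young ones between 49.0 and 52.1, with overlapping points.

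Gamma and delta segments were few. Trgv2 made up 42.2 ± 15.8% of the summed Trgv TPM (SD, n = 52) and led in 38 libraries, and Trgv6, which marks an invariant gamma-delta population, made up 24.8 ± 15.6% and led in 12. Trdv4, the delta segment that pairs with Trgv6 in those cells, made up 50.9 ± 17.98% of Trdv TPM and led in 40 libraries. Trgv2 and Trdv4 are the only gamma and delta segments with enough counts to be tested. The first 180 coding bases of Trgv2 (chr13:19336573-19337167, reverse strand), of Trgv6 (chr13:19190356-19190929, forward strand) and of Trdv4 (chr14:54074905-54075515, forward strand) are given, without capitals: Trgv2 and Trdv4 lead their loci and were tested, while Trgv6 follows Trgv2 and was not tested.
Trgv2: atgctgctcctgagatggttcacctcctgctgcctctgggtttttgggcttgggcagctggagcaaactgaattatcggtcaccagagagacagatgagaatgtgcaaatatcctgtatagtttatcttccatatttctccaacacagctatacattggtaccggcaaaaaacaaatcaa
Trgv6: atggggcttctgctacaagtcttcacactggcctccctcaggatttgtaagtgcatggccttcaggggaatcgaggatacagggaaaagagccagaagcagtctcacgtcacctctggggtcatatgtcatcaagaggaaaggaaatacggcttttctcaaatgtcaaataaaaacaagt
Trdv4: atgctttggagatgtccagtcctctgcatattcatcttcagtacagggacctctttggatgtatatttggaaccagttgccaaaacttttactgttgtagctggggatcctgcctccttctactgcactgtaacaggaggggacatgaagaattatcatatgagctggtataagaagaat
In aged tumours Trgv2 and Trgc2 were highest in the same 5 libraries. Aged anti-PD-L1 replicate 7 had 3.19 CPM of Trgv2 and 13.1 CPM of Trgc2, and aged isotype replicate 4 had 2.33 and 8.67 CPM. Aged anti-PD-L1 replicates 8 and 1 had 2.04 CPM of Trgv2 each, with 9.12 and 7.78 CPM of Trgc2, and aged anti-CTLA4 replicate 6 had 1.95 and 8.08 CPM. The medians of those groups were 0.68 and 2.55 CPM with anti-PD-L1 and 1.03 and 3.35 CPM with isotype. Both genes lie on the reverse strand, Trgc2 at chr13:19304649-19307551. Over 52 libraries the Spearman correlation of CPM was 0.80 for Trgv2 with Trgc2, 0.21 with Trgc1 and 0.35 with Trgc4, while that of Trgv6 with Trdv4 was 0.42. These are descriptions over libraries that share groups, batches and depth.

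Segments of innate-like alpha-beta T cells were close to the limit of detection. Trav11d, a copy of the segment used by invariant natural killer T cells, had 54 counts in 20 libraries, and Trav11 itself had 6 counts in all, under the minimum. Trav1, used by mucosal-associated invariant T cells, had 86 counts in 31 libraries. Trgv5, used by gamma-delta cells of the skin, had 25 counts in 18 libraries. Trav11d, Trav1 and Trgv5 were too sparse to be compared between groups.

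Genes that ranked the 52 tumours most like Trac were sought by the Spearman correlation of log2 CPM. Outside the family the 5 closest were Cd5 (0.970), Cd3e (0.969), Cd6 (0.968), Prkcq (0.962) and Cd96 (0.960). Among members Trbc2 (0.903), Trbv13-2 (0.901) and Trbc1 (0.881) were closest, and Trdc was at 0.836. The gamma genes were lower, with Trgc4 at 0.756, Trgc2 at 0.672, Trgc1 at 0.620 and Trgv2 at 0.455, and Trdv4 was at 0.136. For comparison, Cd8a was at 0.932, Cd4 at 0.910, the B cell gene Cd79a at 0.791 and the natural killer cell gene Ncr1 at 0.551. All these points share libraries, depth and batch, so the values describe these tumours only.

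**Figure D5:**
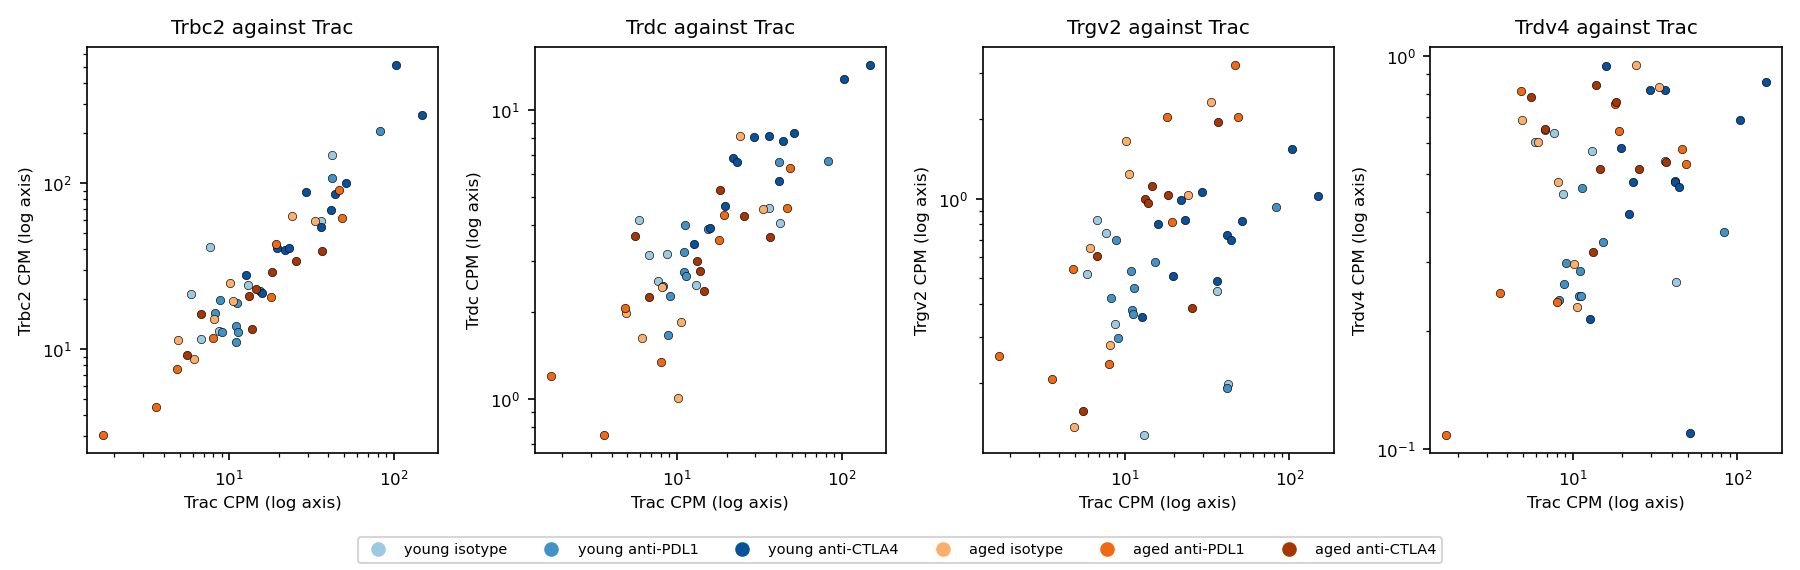
CPM (log axes) of Trbc2, Trdc, Trgv2 and Trdv4 against that of Trac in 52 tumours, coloured by group. Trbc2 follows Trac closely (Spearman 0.903), Trdc less so (0.836), and Trgv2 (0.455) and Trdv4 (0.136) spread widely.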

How the data were processed

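RNA was extracted from whole tumours, and poly(A) libraries that keep strand were made from 500 ng and sequenced as paired 75-base reads in 3 batches, per the labels' protocols. Tools named in the submitters' processing notes are Salmon and DESeq2 1.16.1, with mm10 as the build. Estimated counts per gene, rounded to whole numbers, and TPM values of the same libraries were deposited by the authors. How Salmon treated strand or reads shared by paralogs is not stated there or in the labels, which bears on near-identical receptor segments. Germline segments hold no joined sequences, so rearranged reads may be counted in part.

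Of 47729 gene identifiers 47224 matched a GENCODE vM21 symbol, and members were picked by symbol with at least 20 counts in all. Library totals ran from 9549847 to 53778370, so a gene with few counts has a wide counting error. In 209 pairs of libraries of a group the lowest chi-square per degree of freedom was 19.2, above sampling noise. The test was that of edgeR 4.0.16 (R 4.3.3), run on the counts (filterByExpr by group, 17899 genes, TMM, group and batch terms over 52 libraries, quasi-likelihood F tests), with Benjamini-Hochberg adjustment over all genes and a threshold of 0.05. SE is the absolute log2 fold change over the square root of F. CPM is TMM-normalized, with a prior count of 2 on the log2 scale. Shares are of summed TPM. The fit was tested on simulated data.

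Alternatives were DESeq2 1.42.0, its size factors in edgeR, no filter, no batch term, only the groups compared and libraries of 1 batch. Others were no library of low TMM factor (under 0.8), the CD3 or B cell marker level as covariate and segments summed by subgroup. The replicate number as a block and leaving out each library were also used. Shares were also taken from counts in place of TPM, and ratios of constant genes from TPM in place of CPM. The comparison of the Trbv to Trbc ratio by age, and its alternatives, were added after the data were seen.

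The members and lists were chosen with earlier results of these data known. Genes named are the constant genes, the 4 variable genes of highest mean TPM per locus, segments fixed for what is known of them, called members (up to 10 of smallest p per direction, with fitted values for all called), the 2 members of smallest p where none was called, up to 4 genes of smallest p per marker list, and the 5 genes most like Trac. Genes beyond these, such as Trbv20, Trav8d-1 and those just above and below the count minimum, were named after their values were seen. Sequences are those of GENCODE vM21 transcripts.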

Additional observations from a re-analysis of the deposited data

Results flagged for a closer look

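In groups of 4 to 10 libraries, the highest or lowest library was compared with its nearest neighbour by Dixon's 95% limit on log2(CPM + 0.5). Of 110 checks 8 passed (7.27%), where chance gives about 1 in 20; the group of 12 was not checked. Young anti-PD-L1 replicate 3 was highest in its group for Trbv1 (5.21 CPM, next 1.41), Trbv12-2 (1.50 CPM, next 0.58) and Trav7d-4 (0.856 CPM, next 0.263), and it was also the highest there for Trac (82.5 CPM). Young isotype replicate 2 was highest for Trbv14 (2.53 CPM, next 0.54) and Trav7d-4 (0.599 CPM, next 0.090). Trav3-3 stood apart in aged anti-CTLA4 replicate 6 (1.50 CPM, next 0.386) and in aged isotype replicate 4 (1.72 CPM, next 0.472). Trgc4 was lowest in young isotype replicate 7 (0.925 CPM, next 1.45).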

How the results depend on the processing

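The 19 calls for aged against young under anti-CTLA4 became 8 of 32 in batch 1 alone (29.3% of all genes called). They became 5 of 32 without libraries of low TMM factor (24.7%) and 10 of 29 with the replicate block (23.9%). With the CD3 level 4 of 29 were called, all higher (17.2%). Leaving out 1 library gave 5 to 23 calls, with 21.7 to 35.1% of all genes called. The 5 and the 21.7% came without young anti-CTLA4 replicate 8. The count was 22 of 29 with DESeq2 and with the B cell level (33.7% of all genes each), 19 of 29 with DESeq2's size factors (31.3%), 18 of 29 without a batch term (28.7%), 24 of 122 without a filter (13.8%), 19 of 31 with subgroups summed (30.6%) and 20 of 24 in only the groups compared (37.0%). Same-numbered libraries were correlated on what group and batch terms left of log2 CPM. For these groups 1 of 8 pairs was over 0.1, with a range of -0.39 to 0.14. Against isotype within an age, 5 of 7 pairs were so for young anti-PD-L1 (-0.18 to 0.36) and 4 of 7 for young anti-CTLA4 (-0.13 to 0.29). In aged mice it was 4 of 7 for anti-PD-L1 (-0.50 to 0.52) and 2 of 7 for anti-CTLA4 (-0.50 to 0.55). Replicate numbers were not treated as pairs outside the replicate block. In other comparisons, the 0 calls became 2 without a batch term for anti-CTLA4 in young mice (6.93% of all genes). For age under isotype they became up to 4 without young anti-PD-L1 replicate 3 (10.1%). For age under anti-PD-L1 they became 1 each with DESeq2 (8.56%), without a batch term (Trgc2, higher, 12.2%), and without young anti-CTLA4 replicate 5 (8.85%).

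Under anti-CTLA4 the 4 members called higher with the CD3 level thereby reversed direction: Trbv4 from -1.92 to 1.26, Trbv13-1 from -1.74 to 1.02, Trbv2 from -1.75 to 1.23 and Trbv20 from -1.43 to 1.67 (edgeR adjusted p of 0.0098 to 0.017). The other reversals given here were not called. With the CD3 level, age gave Trac 0.035 under isotype, 0.073 under anti-PD-L1 and 0.35 under anti-CTLA4, and under anti-CTLA4 also Trbv1 0.23, Trbv5 0.82, Trbv17 0.41, Trbv31 0.23, Trbv13-2 0.37, Trbv12-2 0.75, Trbv13-3 0.28 and Trav3-3 0.42. Trac in young mice went to -0.16 with the replicate block, -0.21 without low TMM libraries and ranged from -0.67 (without anti-PD-L1 replicate 3) to 0.50 on leaving out 1 library, for anti-PD-L1. For anti-CTLA4 it went to -0.047 and -0.16, with a range from -0.0072 (without anti-PD-L1 replicate 3) to 0.57, and Trbv20 to 0.90 without a batch term. The difference of differences of Trac ranged from -0.026 to 1.163 for anti-PD-L1 and from -0.28 to 0.45 for anti-CTLA4 on leaving out 1 library, lowest without young isotype replicate 2, and for anti-CTLA4 went to -1.14 without a batch term and -0.81 with the B cell level. The causes were not tested.

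By counts, the aged minus young Trbv to Trbc ratio was 7.96, 5.33 and 7.21 percentage points for isotype, anti-PD-L1 and anti-CTLA4, and without low TMM libraries it was 13.0 for isotype and 15.6 for anti-CTLA4. Batch 3 alone gave no comparison. Segments with few counts per library limit what depth can show.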
